A study of Mus musculus with 12 samples.

Results

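The 10 genes described here carry glucose through aerobic glycolysis to lactate in the mouse retina: Slc2a1, Hk1, Hk2, Pfkl, Aldoc, Pkm, Ldha, Ldhb, Bsg and Nxnl1. They were taken by symbol from a table of 32867 genes, and all 10 were present and passed the filter on low counts in every comparison. RNA of the retina was sequenced in 4 groups of 3 samples: 3 mouse lines with inherited photoreceptor loss, and C3H mice with the wild-type alleles. The Pde6b rd1 mice carry a mutation of the rod phosphodiesterase gene Pde6b and were sampled at postnatal day 13, and the Pde6b rd10 mice carry another mutation of the same gene and were sampled at day 23. The Prph rd2 mice carry a mutation of Prph2, which encodes a structural protein of the photoreceptor outer segment, and were sampled at day 29. The C3H samples are labelled day 13, day 23 and day 29, with a single sample at each. The labels name no treatment. By the study's methods, the rd1 mice are on the C3H background, as the controls are, and the rd10 mice on C57Bl6/J; for the rd2 mice the methods name C3H and the label C57BL6/J. The labels do not say that the samples of a group came from separate animals, so the p-values measure the spread between these samples, which may be technical.

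Photoreceptors turn most of the glucose they take up into lactate even when oxygen is plentiful, a habit known as aerobic glycolysis or the Warburg effect. Glucose enters through the transporter GLUT1 (Slc2a1), is trapped by hexokinase (Hk1, Hk2), passes phosphofructokinase (Pfkl), aldolase (Aldoc) and pyruvate kinase (Pkm), and leaves as lactate through lactate dehydrogenase, a tetramer of A (Ldha) and B (Ldhb) subunits. Rods secrete a short product of Nxnl1, rod-derived cone viability factor, which binds a long form of basigin (Bsg) on cones and through it raises glucose uptake by GLUT1. Basigin is also the partner that carries the lactate transporters of the SLC16A family to the cell membrane. Reads here are counted per gene, so the M1 and M2 forms of Pkm, the long and short forms of Bsg and the products of Nxnl1 cannot be told apart.

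In the GENCODE vM21 annotation of GRCm38 all 10 are protein-coding genes: Slc2a1 at chr4:119108711-119137983, Hk1 at chr10:62268855-62379908, Hk2 at chr6:82725025-82774454, Pfkl at chr10:77986947-78010083, Aldoc at chr11:78322968-78327781, Pkm at chr9:59656368-59679375, Ldha at chr7:46841475-46855627, Ldhb at chr6:142490249-142507957, Bsg at chr10:79704491-79711969 and Nxnl1 at chr8:71560555-71566601. Promoter windows of 300 bases were found for 9 of the 10, with 13 windows between them, in the RefSeq annotation of GRCm38.p6; none was found for Bsg. Of these, the windows of Hk2, Aldoc and Ldha are shown, a choice made after their values were seen. Hk2 and Aldoc fell in rd1 and rose in rd10, and Ldha fell in rd10 and rd2. The Hk2 window is chr6:82774405-82774704 on the minus strand, the Aldoc window chr11:78322823-78323122 on the plus strand and the Ldha window chr7:46845554-46845853 on the plus strand. Capitals mark matches on either strand to TAATCC, the core bound by the photoreceptor factor CRX, and to ACGTG, the core of the hypoxia response element.
Hk2: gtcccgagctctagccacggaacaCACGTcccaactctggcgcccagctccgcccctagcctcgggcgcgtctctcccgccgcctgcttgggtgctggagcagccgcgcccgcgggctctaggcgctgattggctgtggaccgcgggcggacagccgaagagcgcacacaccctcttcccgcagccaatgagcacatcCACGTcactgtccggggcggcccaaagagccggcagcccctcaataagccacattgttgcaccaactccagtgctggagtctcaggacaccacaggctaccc
Aldoc: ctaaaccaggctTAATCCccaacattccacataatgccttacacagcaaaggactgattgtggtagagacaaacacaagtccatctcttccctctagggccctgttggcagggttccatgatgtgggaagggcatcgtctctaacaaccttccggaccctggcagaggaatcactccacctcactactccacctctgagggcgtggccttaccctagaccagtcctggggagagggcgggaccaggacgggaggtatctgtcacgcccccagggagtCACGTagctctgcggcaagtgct
Ldha: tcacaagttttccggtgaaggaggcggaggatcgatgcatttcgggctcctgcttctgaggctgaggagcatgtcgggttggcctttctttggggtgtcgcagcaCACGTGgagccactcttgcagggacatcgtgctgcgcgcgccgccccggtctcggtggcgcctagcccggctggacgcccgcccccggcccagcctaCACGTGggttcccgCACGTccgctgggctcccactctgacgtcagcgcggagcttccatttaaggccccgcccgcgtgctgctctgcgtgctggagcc
ACGTG or its reverse complement CACGT stood in 6 of the 13 windows, 1 window in each of 6 genes, against 19.6% of the 32851 mouse promoter windows searched. TAATCC or GGATTA stood in 2 of the 13, the Aldoc window above and a second Ldha window, against 7.06% of all. The GC box GGGCGG or CCGCCC stood in 6 of the 13 and in 35.7% of all. The palindrome CACGTG, which overlaps ACGTG on both strands, stood in the Ldha window alone, against 7.15% of all. These are descriptions of letters in the windows and say nothing about binding.

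The libraries held 17049495 to 24755890 reads assigned to genes, and the deposited FPKM values divide these counts by gene length and library. Each mutated gene was lowest where the labels place its mutation. Pde6b stood at 57.0, 57.6 and 56.7 FPKM in the rd1 samples and 169, 174 and 169 in the rd10 samples, against 244, 241 and 245 in C3H. Prph2 stood at 455, 482 and 421 in the rd2 samples against 885, 911 and 976 in C3H. Both were also below C3H elsewhere: Prph2 read 534 to 567 FPKM in rd1 and 643 to 719 in rd10, and Pde6b 206 to 218 in rd2. The summed level of 7 rod markers was 25091 to 25754 CPM in C3H, 12386 to 12576 in rd1, 21514 to 22299 in rd10 and 16458 to 17693 in rd2, with CPM the counts scaled to library size, and none of the 7 was at 0. The X-inactivation transcript Xist had 8 to 10 counts in C3H and at least 13428 in every sample of the models, so sex, like age and in part strain, cannot be told apart from genotype. In whole retina, fewer cells of a type and less RNA per cell cannot be told apart either.

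On the FPKM scale, which allows levels to be set between genes, Pkm, Ldha and Bsg stood far above the rest in C3H retina. Pkm read 279, 284 and 295 FPKM in the 3 C3H samples, Ldha 246, 252 and 260.1 and Bsg 205, 209 and 219. Aldoc, Hk1, Nxnl1 and Slc2a1 followed between 62.6 and 74.5 FPKM, then Ldhb, Pfkl and last Hk2, at 26.9, 27.2 and 27.1. The C3H samples hardly differed although they are labelled with different days: the largest ratio of the highest to the lowest C3H value over the 10 genes was 1.12. The coefficient of variation of a gene within a group had a median of 3.14% in C3H, 2.54% in rd1, 3.77% in rd10 and 5.75% in rd2.

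**Figure D1:**
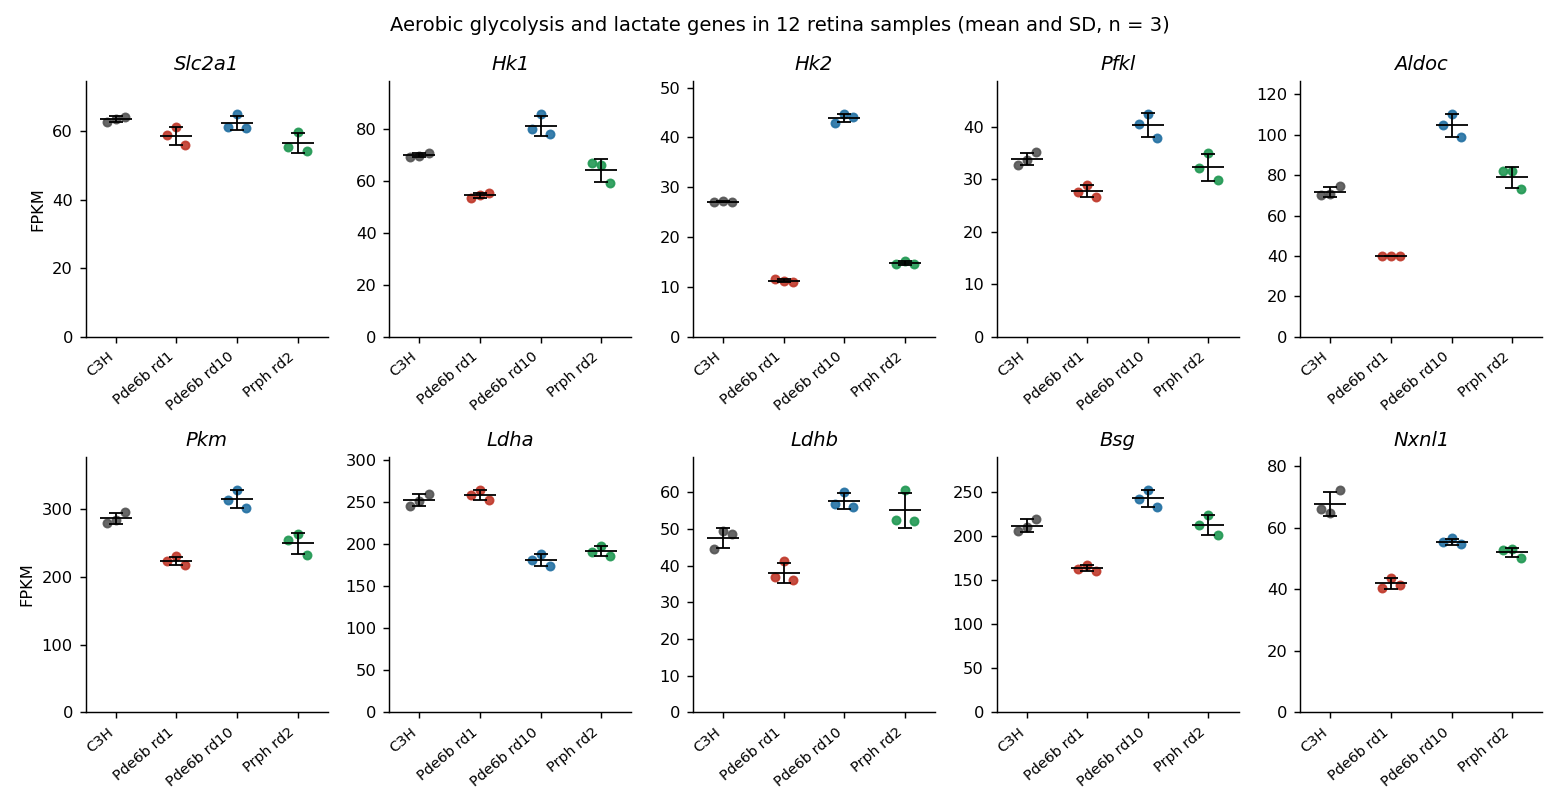
FPKM (vertical axes, each starting at 0) of the 10 genes in the 12 retina samples; points are samples, horizontal bars the means and whiskers the SD of 3 samples. Hk2 has the widest spread between groups, with 11.1 to 11.6 FPKM in Pde6b rd1 and 43.0 to 44.6 in Pde6b rd10, while Ldha has its lowest mean in Pde6b rd10.

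The mRNA of the glucose transporter Slc2a1 changed by small amounts. Slc2a1, the main glucose transporter gene of photoreceptors and pigment epithelium, read 62.6, 63.6 and 64.2 FPKM in C3H, 58.7, 61.1 and 55.8 in rd1, 61.2, 64.8 and 60.9 in rd10 and 55.4, 59.7 and 54.2 in rd2. The rd1 and rd2 samples all lay below the C3H samples, and the rd10 samples overlapped them. The log2 fold change over C3H was -0.19 in rd1 (SE 0.03, adjusted p = 8.23e-05), -0.08 in rd10 (SE 0.04, adjusted p = 0.0856) and -0.20 in rd2 (SE 0.05, adjusted p = 0.0157), from edgeR's quasi-likelihood test with Benjamini-Hochberg adjustment over all genes tested, as for every adjusted p below unless another test is named. In the order of the 4 groups, rd1 and rd2 did not differ beyond their spread (adjusted p = 0.868), nor did rd10 and C3H (adjusted p = 0.145).

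Hexokinase 2 showed the largest changes of the 10 genes. Hk2, an inducible hexokinase that in the retina is found mainly in photoreceptors, read 26.9, 27.2 and 27.1 FPKM in C3H, 11.6, 11.2 and 11.1 in rd1, 43.0, 44.6 and 44.1 in rd10 and 14.6, 15.2 and 14.5 in rd2. No sample of any group overlapped another group, and neighbouring groups in the order rd1, rd2, C3H, rd10 all differed. Hk2 fell by 1.34 on the log2 scale in rd1 (SE 0.04, adjusted p = 8.41e-19), to a fold of 0.396, and by 0.91 in rd2 (SE 0.05, adjusted p = 1.62e-08), to a fold of 0.533. In rd10 it rose by 0.64 on the log2 scale, 1.56-fold (SE 0.04, adjusted p = 7.38e-12). The summed rod markers were lower in all 3 models: 6 of the 7 fell and 1 rose in rd1, 5 fell in rd10 and all 7 fell in rd2. Their part in the Hk2 values was not tested.

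Hk1, the constitutive hexokinase of most retinal cells, moved by less. It read 69.4, 69.6 and 70.9 FPKM in C3H, 53.4, 54.5 and 55.2 in rd1, 80.0, 85.6 and 77.9 in rd10 and 66.9, 66.0 and 59.0 in rd2. The log2 fold change was -0.44 in rd1 (SE 0.03, adjusted p = 8.52e-12), 0.16 in rd10 (SE 0.04, adjusted p = 0.00122) and -0.16 in rd2 (SE 0.05, adjusted p = 0.0585). The FPKM ratio of Hk2 to Hk1 within a sample, which does not depend on how libraries are scaled, lay between 0.382 and 0.391 in C3H, 0.200 and 0.217 in rd1, 0.522 and 0.566 in rd10 and 0.217 and 0.246 in rd2. On the log2 scale the ratio was -1.37 ± 0.02 in C3H (SD, n = 3), and it was lower by 0.90 in rd1 and by 0.75 in rd2 and higher by 0.48 in rd10. No model overlapped C3H, and each two-sided exact permutation test gave p = 0.1, the smallest that 3 samples against 3 allow.

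The middle and lower steps Pfkl, Aldoc and Pkm all fell in rd1. Pfkl, the liver-type subunit of phosphofructokinase, read 32.8, 33.6 and 35.2 FPKM in C3H, 27.6, 28.9 and 26.6 in rd1, 40.6, 42.4 and 37.9 in rd10 and 32.2, 35.0 and 29.9 in rd2. Its log2 fold change was -0.36 in rd1 (adjusted p = 1.73e-08), 0.20 in rd10 (adjusted p = 8.64e-04) and -0.10 in rd2 (adjusted p = 0.308). The rd2 samples overlapped C3H, while those of rd1 lay below and those of rd10 above.

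Aldoc, the brain-type aldolase that cleaves fructose 1,6-bisphosphate, read 70.0, 70.6 and 74.5 FPKM in C3H, 39.9, 40.1 and 39.8 in rd1, 105, 110.1 and 99.0 in rd10 and 82.3, 81.8 and 73.0 in rd2. It fell by 0.92 on the log2 scale in rd1 (SE 0.04, adjusted p = 3.91e-16), to a fold of 0.529, and rose by 0.49 in rd10 (SE 0.04, adjusted p = 5.30e-09). In rd2 the log2 fold change was 0.11 (SE 0.05, adjusted p = 0.241), and the samples overlapped C3H. Since Aldoc is also a gene of Müller glia and astrocytes, the markers of Müller glia are given beside it: their summed level was 3373 to 3468 CPM in C3H, 1853 to 1897 in rd1, 3184 to 3364 in rd10 and 3693 to 3788 in rd2. Of the 6 markers, 5 fell in rd1, 3 fell and 3 rose in rd10, and 1 moved each way in rd2. None was at 0, and their part in the Aldoc values was not tested.

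Pkm, pyruvate kinase, the step that gives pyruvate, read 223, 230.0 and 218 FPKM in rd1, 313, 328 and 302 in rd10 and 254, 262 and 232 in rd2, against the C3H values given above. It fell by 0.43 on the log2 scale in rd1 (SE 0.03, adjusted p = 9.36e-12) and by 0.23 in rd2 (SE 0.05, adjusted p = 0.00669), and the log2 fold change in rd10 was 0.08 (SE 0.04, adjusted p = 0.0605). In rd10 all 3 samples lay above C3H, but the highest C3H value and the lowest rd10 value were 295 and 302 FPKM.

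The A and B subunits of lactate dehydrogenase moved in opposite directions in rd10. Ldha, whose A subunit favours the making of lactate, read 259, 265 and 253 FPKM in rd1, 182, 188 and 175 in rd10 and 191, 199 and 186 in rd2. It overlapped C3H in rd1, with a log2 fold change of -0.04 (SE 0.03, adjusted p = 0.291) that turned to 0.04 in limma's fit of log2 FPKM, the only one of the 10 genes that did not pass an adjusted p of 0.05 there. It fell by 0.53 in rd10 (SE 0.04, adjusted p = 1.19e-10) and by 0.43 in rd2 (SE 0.04, adjusted p = 1.57e-05), below every C3H sample in both.

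Ldhb, whose B subunit favours the return of lactate to pyruvate, read 44.5, 49.5 and 48.5 FPKM in C3H, 36.8, 41.1 and 36.0 in rd1, 56.8, 59.9 and 56.0 in rd10 and 52.3, 60.6 and 52.1 in rd2. It fell by 0.40 on the log2 scale in rd1 (SE 0.05, adjusted p = 9.24e-07) and rose by 0.22 in rd10 (SE 0.05, adjusted p = 9.73e-04), with a log2 fold change of 0.18 in rd2 (SE 0.06, adjusted p = 0.0998). The FPKM ratio of Ldha to Ldhb lay between 5.09 and 5.52 in C3H, 6.43 and 7.03 in rd1, 3.12 and 3.20 in rd10 and 3.28 and 3.66 in rd2. The ratio was higher than C3H in all rd1 samples and lower in all rd10 and rd2 samples, by 0.36, -0.76 and -0.61 on the log2 scale, each with an exact two-sided permutation p = 0.1, the smallest possible. Ldha has pseudogenes named after it in the annotation, Ldha-ps and Ldha-ps2. Reads may be split between near-identical copies, and its level is uncertain to that extent. Pseudogenes under other names were not searched for, for Ldha or the other genes.

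**Figure D2:**
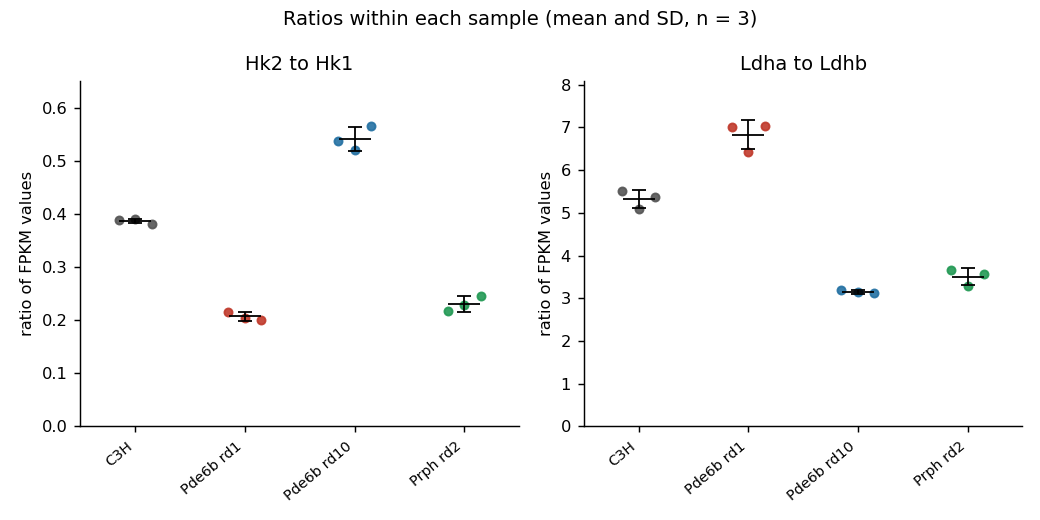
FPKM ratio of Hk2 to Hk1 (left) and of Ldha to Ldhb (right) within each of the 12 samples, with the mean and SD of 3 samples per group. The Hk2 ratio is lower in Pde6b rd1 and Prph rd2 and higher in Pde6b rd10 than in C3H, and the Ldha ratio stands above C3H in the Pde6b rd1 samples and below it in the others.

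Bsg and Nxnl1, the receptor and the ligand of the rod-to-cone signal, both fell in rd1 and parted in the other models. Bsg read 163, 167 and 161 FPKM in rd1, 242, 252 and 233 in rd10 and 212, 223 and 201 in rd2. It fell by 0.44 on the log2 scale in rd1 (SE 0.03, adjusted p = 6.92e-11), rose by 0.14 in rd10 (SE 0.04, adjusted p = 0.00463) and had a log2 fold change of -0.03 in rd2 (SE 0.05, adjusted p = 0.806), where it overlapped C3H and its sign turned with limma. Nxnl1, expressed by photoreceptors, read 66.2, 64.8 and 72.3 FPKM in C3H, 40.6, 43.8 and 41.4 in rd1, 55.4, 56.6 and 54.7 in rd10 and 52.8, 53.1 and 50.4 in rd2. Nxnl1 alone of the 10 genes lay below every C3H sample in all 3 models. The share of all genes that did so was not counted, and its paralogue Nxnl2, Pde6b and Prph2 did so too. Nxnl1 fell by 0.77 in rd1 (SE 0.04, adjusted p = 4.39e-13), by 0.34 in rd10 (SE 0.05, adjusted p = 1.87e-06) and by 0.41 in rd2 (SE 0.05, adjusted p = 1.66e-04).

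In rd1, 9 of the 10 genes were lower than in C3H by the adjusted p, and Ldha did not pass. A gene was called, with the thresholds of the study, where it changed 1.5-fold or more and its p before adjustment was under 0.05. In rd1, 0 of the 10 were called higher and 3 were called lower, Hk2, Aldoc and Nxnl1, beside 8.98% of all 18310 genes tested called higher and 6.03% called lower. By an adjusted p under 0.05 alone, 9 of the 10 were lower and 0 higher, beside 21.3% of all genes lower and 21.9% higher. The median log2 fold change of the 10 was -0.43, and that of all genes tested was -0.01.

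In rd10 most of the 10 genes moved up and by small amounts. Hk2 was the 1 gene called higher and 0 were called lower, beside 15.9% of all 18704 genes tested called higher and 8.08% called lower. By the adjusted p, Hk1, Hk2, Pfkl, Aldoc, Ldhb and Bsg were higher, 6 of 10, and Ldha and Nxnl1 lower, 2 of 10, beside 27.7% of all genes higher and 26.3% lower. The median log2 fold change was 0.15. In rd2, Hk2 was the 1 gene called lower and 0 were called higher, beside 1.89% of all 18581 genes tested called lower and 2.68% called higher. By the adjusted p, Slc2a1, Hk2, Pkm, Ldha and Nxnl1 were lower, 5 of 10, and 0 higher, beside 5.17% of all genes lower and 4.53% higher. The median log2 fold change was -0.18. Without rd2 replicate 2, 1435 of all genes were called in place of 850, and Hk2 was still the 1 member. The 3 comparisons share the C3H samples. With only the C3H sample of the model's own labelled day as control, the fold changes of the 10 genes had the same direction in all 3 models, but with 1 control the spread comes from the samples of the 3 models alone, and the lone sample is assumed to vary like them.

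**Figure D3:**
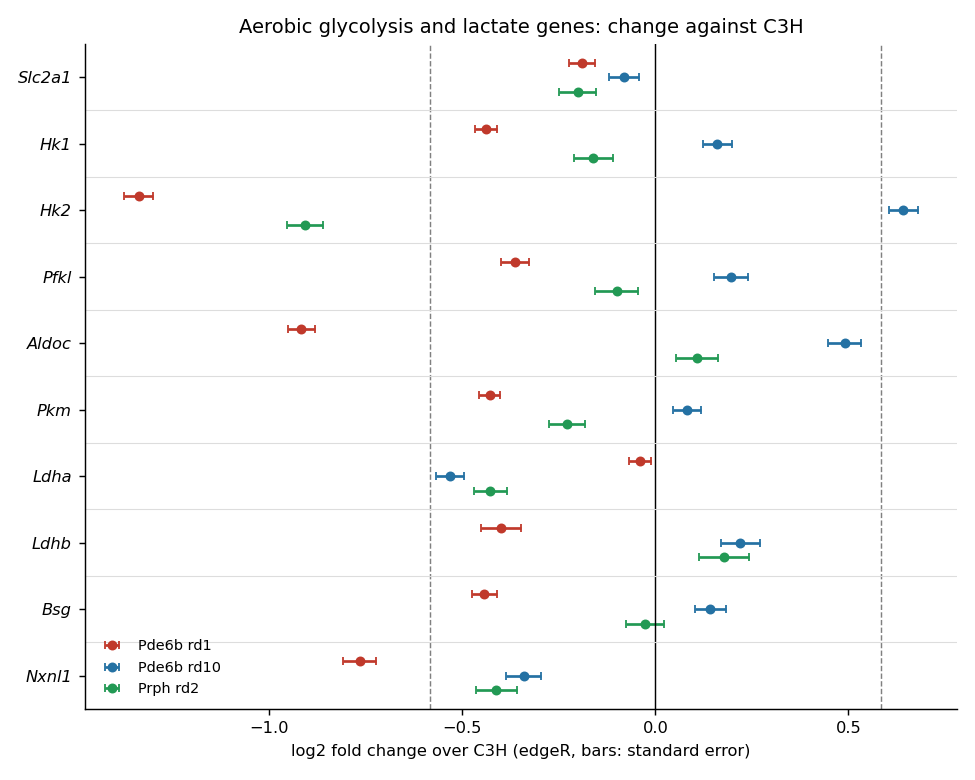
Log2 fold change over C3H of the 10 genes in Pde6b rd1, Pde6b rd10 and Prph rd2 (horizontal axis; points are edgeR estimates from 3 samples against 3, bars their standard errors). Dashed lines mark a fold change of 1.5; Hk2 is past them in all 3 models, to the left in Pde6b rd1 and Prph rd2 and to the right in Pde6b rd10.

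The order of the 4 group means of log2 CPM differed between the genes, here with all 12 samples in a single fit. Hk1, Hk2, Pfkl, Pkm and Bsg ran from rd1 through rd2 and C3H up to rd10, and of their neighbouring groups rd2 and C3H did not differ beyond their spread for Pfkl (adjusted p = 0.252) and Bsg (adjusted p = 0.757), nor C3H and rd10 for Pkm (adjusted p = 0.118). Aldoc and Ldhb ran from rd1 through C3H and rd2 to rd10. C3H and rd2 did not differ beyond their spread for Aldoc (adjusted p = 0.181) or Ldhb (adjusted p = 0.0704), nor rd2 and rd10 for Ldhb (adjusted p = 0.584). Slc2a1 and Nxnl1 ran from rd1 through rd2 and rd10 up to C3H, with rd2 and rd10 not apart for Nxnl1 (adjusted p = 0.231). Ldha ran the other way, from rd10 through rd2 and rd1 up to C3H, with rd1 and C3H not apart (adjusted p = 0.217). Apart from these and the 2 pairs of Slc2a1 given above, the neighbouring groups differed, among them rd2 and C3H for Hk1 (adjusted p = 0.0234), which did not pass in the fit of 6 samples. Mean FPKM put a pair of neighbours that did not differ in reverse for Slc2a1, Bsg and Ldha. Slc2a1 had means of 58.6 FPKM in rd1 and 56.4 in rd2. Bsg had 212 in rd2 and 211 in C3H, and Ldha 259 in rd1 and 253 in C3H.

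The 2 mutations of Pde6b were also set against each other, in a single fit of all 12 samples. The log2 difference, rd10 minus rd1, was 2.01 for Hk2 (SE 0.04, adjusted p = 8.47e-19) and 1.43 for Aldoc (SE 0.05, adjusted p = 3.98e-15). Hk1, Pfkl, Ldhb and Bsg were also called higher in rd10, with differences of 0.62, 0.59, 0.65 and 0.61, making 6 of 10 called higher and 0 lower, beside 17.6% of all 19616 genes tested called higher and 11.2% called lower. Pkm (0.54), Nxnl1 (0.45) and Slc2a1 (0.13) were higher in rd10 by the adjusted p without reaching 1.5-fold, and Ldha was the 1 gene lower, by -0.47 on the log2 scale (adjusted p = 2.37e-09). The share of all genes passing the adjusted p was not counted for this contrast. Hk1, Pfkl and Bsg lie close to the 1.5-fold line: without rd10 replicate 2 they read 0.58, 0.55 and 0.58 and were no longer called, which left 3 of 10. Pfkl also lost its call without rd1 replicate 1, rd1 replicate 3 or rd10 replicate 1 and with DESeq2 (0.57). Cone markers were also higher in rd10 than in rd1: the summed level of 7 was 484 to 488 CPM in C3H, 292 to 302 in rd1, 755 to 770 in rd10 and 503 to 532 in rd2. All 7 fell in rd1, all 7 rose in rd10, 1 fell and 2 rose in rd2, and none was at 0. Their part in the differences between the models was not tested. Age and strain differ between the 2 groups and cannot be told apart from the mutation.

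Markers of cells that could add their own glycolytic RNA were measured beside these results. The summed level of 6 microglia markers was 49.9 to 53.3 CPM in C3H, 46.3 to 51.3 in rd1, 129 to 135 in rd10 and 44.4 to 46.6 in rd2, and 5 of the 6 rose in rd10 and 1 fell. That of 6 endothelium markers was 572 to 581 CPM in C3H, 533 to 538 in rd1, 461 to 473 in rd10 and 564 to 578 in rd2. That of 5 bipolar cell markers was 1860 to 1892 CPM in C3H, 1855 to 1867 in rd1, 1601 to 1617 in rd10 and 1901 to 2003 in rd2. Pigment epithelium markers summed to 58.0 to 59.6 CPM in C3H, 40.9 to 44.3 in rd1, 52.0 to 57.2 in rd10 and 56.9 to 58.3 in rd2, with Best1 at 0 to 2 counts in C3H. Red blood cell markers summed to 44.8 to 48.4 CPM in C3H, 43.6 to 47.3 in rd1, 48.7 to 54.1 in rd10 and 73.0 to 83.2 in rd2, and Hba-a2 was at 0 in every sample outside rd10. The part of these cells in the glycolysis results was not tested.

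The other genes of the pathway gave the setting for the 10. A list of 44 further genes of glucose uptake, glycolysis, lactate transport and pyruvate entry was drawn up, of which 43 were in the table. In rd1, 38 were tested, 2 were called higher and 5 lower, and by the adjusted p 3 were higher and 23 lower, with a median log2 fold change of -0.19. In rd10, 39 were tested, 5 were called higher and 3 lower, and by the adjusted p 16 were higher and 10 lower, with a median of 0.07. In rd2, 40 were tested and 0 were called in either direction by edgeR, DESeq2 or limma, with 4 higher and 9 lower at an unadjusted p under 0.05 of any size, up to 2 called when a sample was left out (rd2 replicate 2), and by the adjusted p 3 were higher and 5 lower, with a median of 0.00. Between the Pde6b models, 40 were tested, with 12 called higher in rd10 and 4 lower, and a median difference of 0.39. The shares of all genes given above are the background for the edgeR calls and for the counts by the adjusted p. The counts at an unadjusted p of any size have no such share beside them. Nor do the calls by DESeq2, by limma or with a sample left out.

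Lactate transport held the largest fall of the list in rd1. Slc16a1, the monocarboxylate transporter MCT1, read 56.3, 58.8 and 56.3 FPKM in C3H and 28.2, 26.9 and 29.4 in rd1, with no overlap, a log2 fold change of -1.09 (SE 0.04, adjusted p = 3.27e-17). It read 49.8, 48.6 and 49.5 in rd10 and 57.8, 59.2 and 65.1 in rd2. Emb, embigin, the relative of basigin that escorts monocarboxylate transporters, read 4.06, 4.21 and 4.12 FPKM in C3H, 2.54, 2.40 and 2.53 in rd1, 7.14, 7.13 and 6.72 in rd10 and 4.94, 5.12 and 5.38 in rd2. It fell by 0.80 on the log2 scale in rd1 (adjusted p = 4.08e-10) and rose by 0.71 in rd10 (adjusted p = 1.53e-09), the same directions as Bsg in both Pde6b models. In rd2 Emb rose by 0.28 (adjusted p = 0.00933), where Bsg did not pass. Slc16a8, the lactate transporter MCT3 of the pigment epithelium, fell by 1.05 on the log2 scale in rd10 (SE 0.18, adjusted p = 6.20e-05), from 71 to 116 counts in the C3H samples to 32 to 58. Ldhd, D-lactate dehydrogenase, was also called lower in rd1 at -1.02 (SE 0.23, adjusted p = 9.55e-04).

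Among the regulators, Txnip rose in both Pde6b models. Txnip, a brake on glucose uptake that is itself switched on by glucose, read 3.68, 3.89 and 3.83 FPKM in C3H, 8.17, 8.77 and 8.76 in rd1, 11.7, 11.6 and 11.3 in rd10 and 3.07, 3.71 and 3.54 in rd2. It rose by 1.10 on the log2 scale in rd1 (SE 0.07, adjusted p = 1.28e-11) and by 1.54 in rd10 (SE 0.07, adjusted p = 1.07e-13), while the rd2 samples overlapped C3H. Pfkfb2, which makes the phosphofructokinase activator fructose 2,6-bisphosphate, fell by 0.88 in rd1 (adjusted p = 1.21e-15), from 24.3, 25.1 and 24.7 FPKM to 14.4, 13.8 and 14.2. Its relative Pfkfb3 was called higher in rd10 at 0.65 (adjusted p = 3.28e-09). Nxnl2, the paralogue of Nxnl1, fell by 0.88 on the log2 scale in rd10 (SE 0.05, adjusted p = 1.68e-11), from 23.3, 22.4 and 23.7 FPKM in C3H to 12.3, 14.0 and 12.9.

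Other enzymes of the pathway were counted in the same way. Of 14 tested in rd1, 10 were lower by the adjusted p and Eno3 alone higher, with a median of -0.35 on the log2 scale, and Eno2, neuronal enolase, was the 1 called lower at -0.60. In rd10, 13 were tested, 6 were higher by the adjusted p and 2 lower, and Pfkp, the platelet-type phosphofructokinase, was called higher at 0.66 (adjusted p = 1.08e-12). Hkdc1, a hexokinase domain protein, rose by 0.88 in rd1 (SE 0.07, adjusted p = 4.85e-10), opposite to Hk2, from 3.60, 4.22 and 4.64 FPKM to 7.69, 8.53 and 8.06. Hk3, the hexokinase of myeloid cells, was called higher in rd10, at 45 to 60 counts against 9 to 11 in C3H, beside the microglia markers given above. Eno1b, a near-identical copy of Eno1, had 6533, 8049 and 6716 counts in C3H and 13, 3 and 11 in rd10, while rd2 had 7115, 9481 and 7303. With the counts of Eno1 and Eno1b added, an alternative chosen after seeing the data, the log2 fold change of enolase 1 in rd10 was -0.28 (SE 0.03, adjusted p = 7.09e-07), against -0.06 for Eno1 alone.

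**Figure D4:**
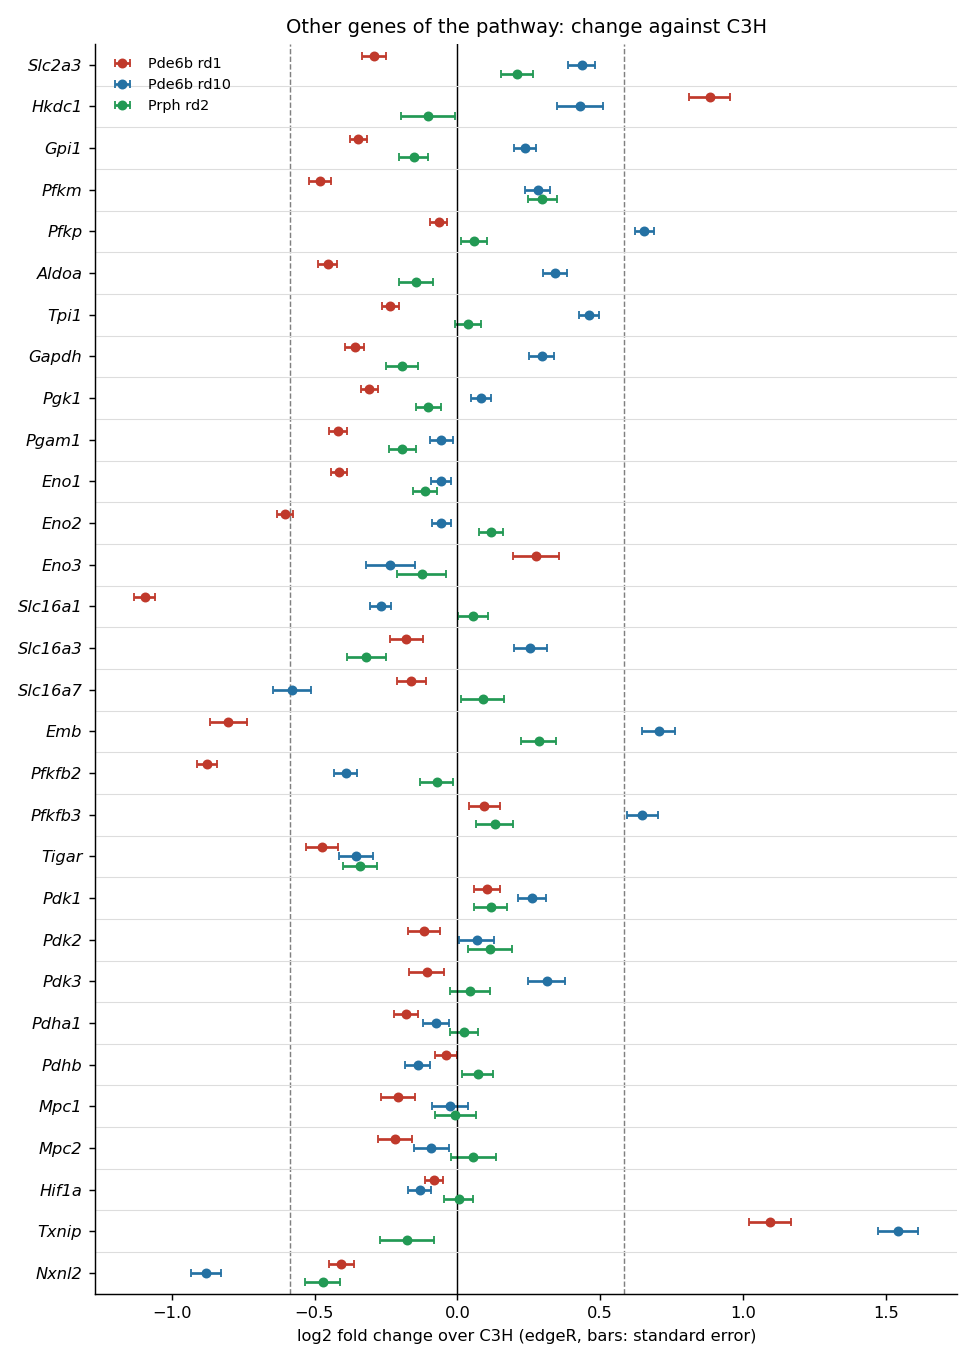
Log2 fold change over C3H of the other genes of the pathway list in the 3 models (edgeR estimates with standard errors, 3 samples against 3; dashed lines mark 1.5-fold). Most enzymes lie left of 0 in Pde6b rd1, Slc16a1 furthest, and Txnip lies right of 1.0 in both Pde6b models; Eno1b, off the scale, and genes of low counts are not drawn.

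The members also gave circular RNAs, counted by reads across back-splice junctions. Of the 10 genes, 4 had any: 7 circRNAs from Hk1, 2 from Hk2, 2 from Ldha and 1 from Pfkl, with 277 junction reads over all 12 samples. Both ends of all 12 fell on annotated exon ends. The 2 with most reads are shown across the junction, 25 bases on each side, with capitals for the bases that follow the back-splice. The Hk2 circle spans chr6:82730768-82739674 on the minus strand and the Ldha circle chr7:46850178-46851058 on the plus strand of GRCm38, and the genome has GT and AG beside the joined exons of both.
Hk2 circle: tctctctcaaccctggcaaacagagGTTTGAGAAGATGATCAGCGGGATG
Ldha circle: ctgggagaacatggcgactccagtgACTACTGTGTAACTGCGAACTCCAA
The Ldha circle had 20, 25 and 21 junction reads in C3H, 11, 9 and 8 in rd1, 13, 12 and 9 in rd10 and 9, 11 and 13 in rd2. Scaled to the gene reads of each sample (CPM), its mean was 1.04 ± 0.03 in C3H (SD, n = 3), and 0.466 of that in rd1, 0.520 in rd10 and 0.443 in rd2. Every model lay below every C3H sample on this scale, each with a two-sided exact permutation p = 0.1, the smallest possible. Scaled instead to all junction reads of each sample (CPM), the circle stood at 1161, 1135 and 1444 in C3H. It stood at 735, 917 and 705 in rd1, 520, 664 and 430 in rd10 and 493, 538 and 599 in rd2. Every model again lay below C3H, but all rd1 samples lay nearer to it than those of rd10 and rd2. Whether circRNAs in general shared the rd1 fall was not tested. The count of the whole Ldha gene in rd1 did not pass its test, as given above. The Hk2 circle had 8, 16 and 4 reads in C3H, 0, 0 and 2 in rd1, 8, 12 and 12 in rd10 and 4, 6 and 3 in rd2. All rd1 samples were at or under 3 reads, too few for a fold, and the rd10 and rd2 samples overlapped C3H (exact permutation p = 0.7 and p = 0.2). The reads carry no molecular identifiers and can be copies of each other, so counting error is the least error of these values.

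**Figure D5:**
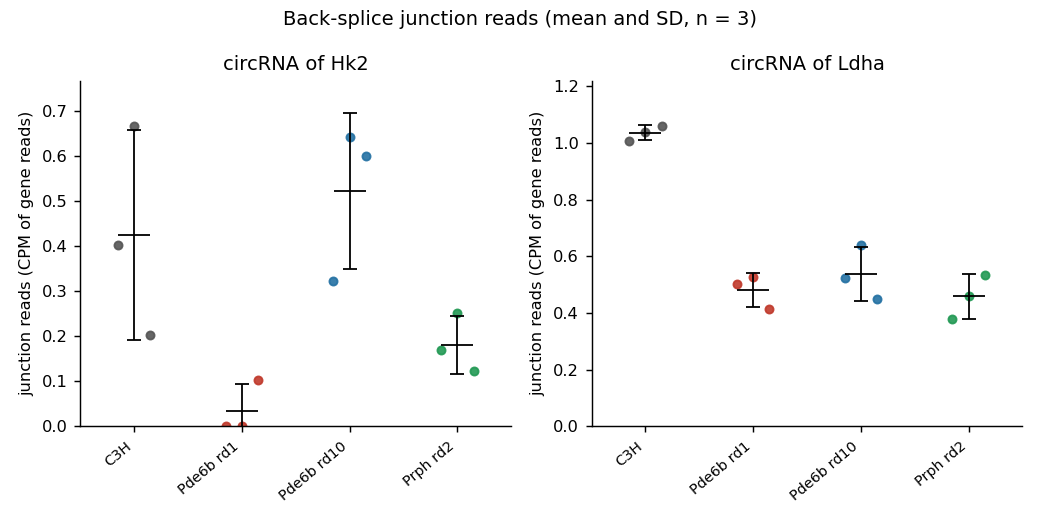
Back-splice junction reads, scaled to the gene reads of each sample (CPM), of the Hk2 circle (left) and the Ldha circle (right) in the 12 samples, with the mean and SD of 3 samples per group. The Ldha circle lies near 1.04 in C3H and lower in all 3 models; the Hk2 circle is at or near 0 in Pde6b rd1.

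Some genes outside the pathway followed Hk2, Aldoc and Nxnl1 closely over the 12 samples. Likeness was the root-mean-square difference of centred log2 CPM over the 12 samples, searched among 16575 genes. Nearest to Nxnl1 were Uckl1 (0.0744), Jag1 (0.0795) and Unc119 (0.0795), the last a photoreceptor gene. Nearest to Aldoc were Tpbg (0.0677), Oplah (0.0700) and Usp2 (0.0785). Nearest to Hk2, at larger distances, were F630040K05Rik (0.146), Scn4a (0.149) and Mef2c (0.200). The measure is not scaled to the size of the changes, which were largest for Hk2, so these distances cannot be set against those of Nxnl1 and Aldoc. Mef2c, a transcription factor gene, was -1.62 in rd1, 0.80 in rd10 and -0.74 in rd2 on the log2 scale against C3H.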

How the data were processed

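RNA of 12 mouse retina samples was analysed, 3 per group by label. The authors removed adapter and low-quality reads, aligned to GRCm38 and deposited raw read counts per gene from HTSeq 0.11.2 (per the labels). They also deposited FPKM values made from these counts, and counts of back-splice junction reads of circRNAs, called after TopHat2 2.1.1; circRNA TPM values were not used here. Counts were tested with edgeR 4.0.16 in R 4.3.3 (TMM, filterByExpr, quasi-likelihood test, Benjamini-Hochberg over all genes tested), each model against C3H, and rd10 against rd1 in a fit of all 12 samples. Ratios and circRNAs were tested by exact permutation. The other settings tried were limma 3.58.1 on log2 FPKM values, DESeq2 1.42.0, other scalings and filters, a replicate block and each sample left out. The steps were tested on simulated data. The 10 genes, the lists and the markers were chosen with earlier results of these data known. Named were the 10, the mutated genes, up to 5 called list genes per comparison with a mean of at least 50 counts, and 3 like genes each for Nxnl1, Hk2 and Aldoc; further list genes named by count were chosen after their values were seen. Of the pathway list, Pgk2 was not matched. Protein sequences were not used here.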

Additional observations from a re-analysis of the deposited data

Results flagged for a closer look

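All 10 genes differed between the 2 Pde6b models by the adjusted p of the direct contrast in the fit of all 12 samples, 9 higher and 1 lower in rd10. The share of all genes passing that adjusted p was not counted for this contrast, so this count has no background beside it. Of the 10 genes, 6 also reached 1.5-fold, all higher in rd10, beside 17.6% of all genes tested called higher and 11.2% called lower. Their log2 difference, rd10 minus rd1, was 0.62 for Hk1, 2.01 for Hk2, 0.59 for Pfkl, 1.43 for Aldoc, 0.65 for Ldhb and 0.61 for Bsg. Hk2 and Aldoc kept the call in all 15 alternatives, and Pfkl in 4 of them. Age, strain and any difference in sex cannot be told apart from the mutation here.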

How the results depend on the processing

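Each member's fold change was recomputed under 15 to 17 alternatives; 640 values kept direction and call, 17 lost the call and 6 turned sign. Of the 17, 11 were Pfkl, 3 Hk1 and 3 Bsg, all between rd10 and rd1. The 6 were 2 of Ldha in rd1 (0.0350 and 0.0351 with limma on log2 FPKM plus 1 and plus 0.1) and 4 of Bsg in rd2 (0.0058 with both limma fits, 0.0053 without C3H replicate 3 and 0.0080 without rd2 replicate 3, with a range of -0.0594 to 0.0080 when a sample was left out), all near 0 and uncalled. Of 6 members called between rd10 and rd1, 3 were called with either limma fit, and between 3 and 6 without any single sample. With limma on log2 FPKM plus 1, the pathway list had 4 calls in rd1, and all genes called were 1097 in rd1 (2749 by edgeR), 2035 in rd10 (4479), 166 in rd2 (850) and 2929 between rd10 and rd1 (5644). In rd2, no filter gave 1300 calls and the adjusted p 384, and leaving out a sample gave 745 to 1435, the highest without rd2 replicate 2; the pathway list then had 0 to 2. The cause was not tested.

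The replicate numbers are shared by the groups, but deviations of same-numbered samples had correlations of -0.100 to 0.201, and no comparison had every pair over 0.1, so the numbers do not pair samples. With a replicate block, members called were 3 in rd1, 1 in rd10, 1 in rd2 and 6 between rd10 and rd1, as without it; it changed no other call among the members.

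With 3 samples per group an exact permutation test cannot give p under 0.1, and junction reads of the circles are few. Genotype goes with age, with sex as Xist shows and in part with strain.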
